A study of Mus musculus with 3 samples.

Results

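The 8 genes described here encode proteins that carry, make and remove retinoids, the active forms of vitamin A. They are Rbp4, Crabp1 and Crabp2 (carriers), Dhrs3, Aldh1a1, Aldh1a2 and Aldh1a3 (conversion) and Cyp26b1 (clearance). They were taken by symbol from the feature list of the count matrices, where all 8 of 8 were found among 31053 features, and were followed across skin cell classes, fibroblast subsets and 3 libraries.

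Cells take up retinol, which Rbp4 carries in blood, and oxidise it through retinal to retinoic acid, the ligand of the nuclear receptors RAR and RXR. The retinal dehydrogenases Aldh1a1, Aldh1a2 and Aldh1a3 make retinoic acid, Dhrs3 turns retinal back into retinol, the cytoplasmic proteins Crabp1 and Crabp2 bind retinoic acid, and the cytochrome Cyp26b1 oxidises it for removal. In skin, retinoids are known for their effects on keratinocyte differentiation, sebaceous glands and hair follicles.

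Dorsal skin of mice was dissociated with collagenase and profiled by droplet single-cell RNA sequencing, with 1 library in each of 3 groups. The young control was 2.5 months old and carried Yap1 fl/fl and Wwtr1 fl/fl without a recombinase. The young YAP/TAZ knockout was of the same age and carried R26-CAG-CreER beside both floxed alleles, so the tamoxifen-dependent Cre was driven by a ubiquitous promoter and not by a fibroblast promoter. Both young groups received tamoxifen by mouth, 0.11 mg per g on 2 days a week for 4 weeks. Old control skin came from wild-type animals of 24 months without tamoxifen, so that it differs from the young control in age, alleles and tamoxifen together. How many animals a library came from is not stated in the labels, and each group counts as 1 sample. No test across samples was possible, and all intervals below cover counting error only.

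The matrices held 15290, 25348 and 22108 barcodes in the young control, knockout and old control, of which 10784, 8655 and 11108 were kept as cells. Pairs of libraries shared 127 to 198 barcode sequences. The mitochondrial limit of 15% of UMIs was passed by 62.4% of knockout barcodes, 12.3% of young control and 19.4% of old barcodes, so the knockout library stood apart in RNA quality. Kept fibroblast-like cells had median mitochondrial shares of 6.91%, 4.60% and 5.37% in the knockout, young and old libraries, and Schwann-like cells 10.03%, 5.33% and 7.36%. Clusters left unnamed held 59.0% of kept knockout cells, 33.4% of old cells and 2.99% of young control cells. Most of the knockout ones did score for a class: cluster 3 (1647 knockout cells) best for vascular endothelial, cluster 6 (1184) for pericyte or smooth muscle, cluster 13 (1000) for papilla or sheath and cluster 14 (900) for Schwann cells. They were left out of these classes because other lists rose too, or the score or its margin was low. Calls that change when they are put back are given with both values, as are calls that change under a stricter cell filter (1000 genes, 2000 UMIs and at most 10% mitochondrial UMIs). The part of RNA quality in the knockout results was not tested beyond that filter. Wwtr1, the gene of TAZ, stood at 22.2 CPM (UMIs of the gene per 1e6 UMIs) in knockout fibroblast-like cells against 124 and 119 CPM in the young and old controls. Yap1 stood at 50.4, 59.0 and 52.8 CPM in the knockout, young and old libraries, and 3' counts need not reflect a deletion elsewhere in a transcript. The knockout library was male by its sex-linked genes (Xist 0 and Ddx3y 131 CPM) and both controls were female (Ddx3y at 0 UMIs), so an effect of the knockout and one of sex cannot be told apart.

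Levels are UMI counts of a gene summed over the cells of a class and library and divided by all UMIs of that sum, in CPM. Ratios of CPM carry exact 95% intervals. A gene was called higher or lower when it averaged 20 CPM or more over the 3 libraries, its ratio was 2 or more (0.5 or less), and the interval end nearer to 1 was past 1.5-fold. Classes were named from marker genes, and the 8 genes themselves had no part in clustering or naming.

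**Figure D1:**
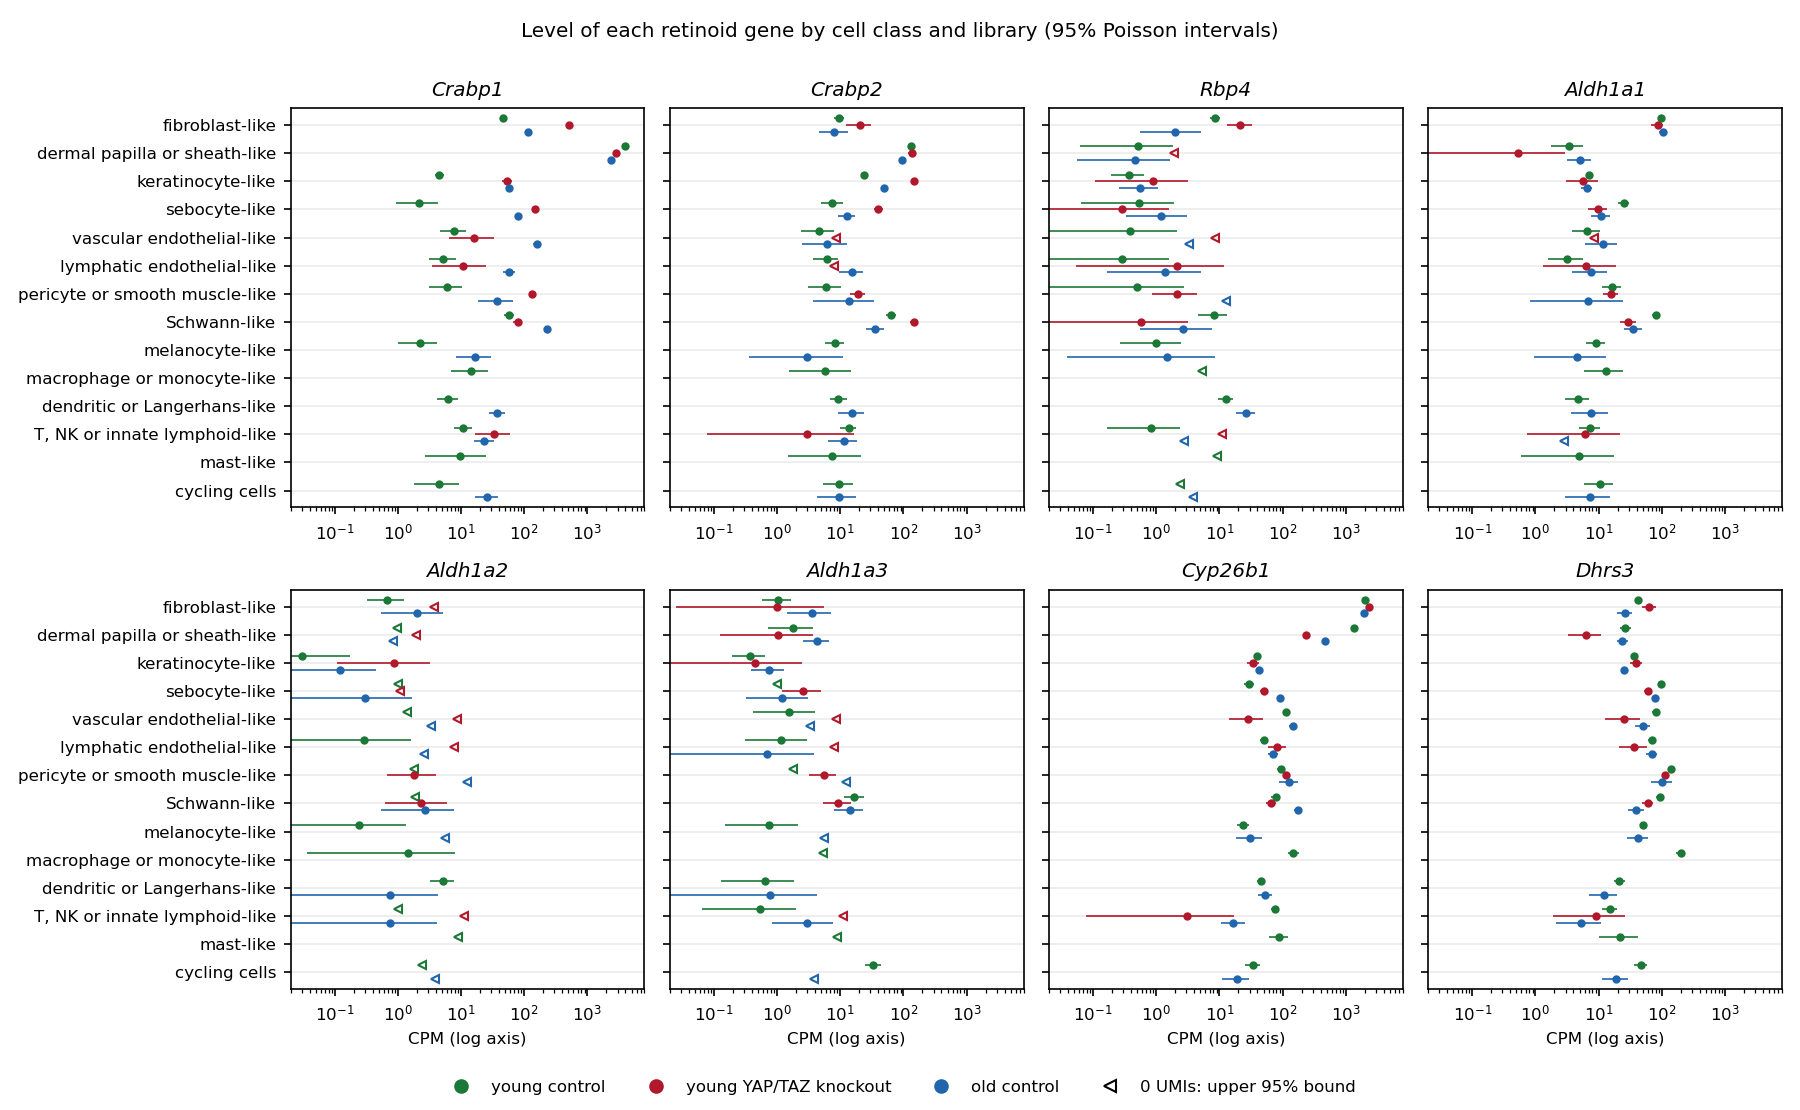
CPM (log axis) of each of the 8 genes in 14 cell classes, 1 point per library with its 95% Poisson interval. Classes with under 50 cells in a library are not drawn, and open triangles are upper bounds where no UMI was counted. Crabp1 peaked in papilla- or sheath-like cells in all 3 libraries and Cyp26b1 in fibroblast-like cells, while Rbp4, Aldh1a2 and Aldh1a3 stayed near 0 in most classes.

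Crabp1 (ENSMUSG00000032291) lies on chromosome 9 of GRCm38, 54764748 to 54773110 on the plus strand, has 4 exons and overlaps no other annotated gene. Its product holds retinoic acid in the cytoplasm. Dermal papilla- or sheath-like cells, the mesenchyme at the base of the hair follicle, held 93.2% of all Crabp1 UMIs in kept young control cells. There the level was 3876 CPM in the young control, 2791 CPM in the knockout and 2403 CPM in the old control. The share of these cells with a Crabp1 UMI was 84.9%, 88.9% and 79.3% in the same order after thinning every cell to 1500 UMIs, which left out 31, 2 and 401 shallower cells. Before thinning it was 78.1%, 96.4% and 79.9%. In lymphoid-like cells (T, NK and innate), taken as a class that should lack the gene, the thinned share was 1.37%, 1.33% and 1.74%. Median depths were 3780, 5805 and 1928 UMIs in papilla- or sheath-like cells and 2878, 4075 and 4157 UMIs in the lymphoid-like cells. Papilla- or sheath-like cells thus carried Crabp1 in most cells of every library, far over this background.

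The Crabp1 ratio in papilla- or sheath-like cells was 0.72 [0.698 to 0.743] for knockout against young control and 0.62 [0.605 to 0.636] for old against young control, and neither passed the size rule. With cluster 13 put back the knockout class had 1110 cells and a ratio of 0.45 [0.436 to 0.4615], which was called lower. Different sub-clusters made up this class in each library. When the mesenchymal clusters were clustered again, sub-cluster 9 held 177 young control cells, sub-cluster 12 held 100 knockout cells and no others, and sub-clusters 1 and 4 held 887 and 331 old cells. Sub-clusters 1 and 9 scored best for papilla or sheath but stayed unnamed. The lymphoid list scored higher in the first and the mast cell list in the other. In sub-cluster 9 the margin was also low, with papillary fibroblast at a score of 0.82 against 0.96 for papilla or sheath. Sub-cluster 1 was shallow (median 1602 UMIs in the old control) and led by the T cell genes Cd3g, Cd7 and Trdc, and its Crabp1 level was 1702 CPM. Sub-cluster 4, itself named papilla or sheath, stood at 2917 CPM in the old control. With the stricter cell filter the class stood at 3969, 2838 and 2793 CPM in the young control, knockout and old control. The knockout class had 110 cells here, 861 with doublets kept (2049 CPM) and 512 with each library clustered alone (2321 CPM). Summed markers of basal keratinocytes, the neighbouring cells of the follicle, stood at 1836, 486 and 2992 CPM in this class. The 11 papilla or sheath markers summed to 1756 CPM in the young control, 1929 CPM in the knockout and 1635 CPM in the old control. The basal keratinocyte sum was thus the higher in both controls, and its part in the result was not tested.

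Fibroblast-like cells, named from collagen and matrix genes, held 2568 young control, 151 knockout and 337 old control cells. Crabp1 stood at 503 CPM in the knockout, 45.4 CPM in the young control and 116 CPM in the old control. The knockout ratio was 11.1 [9.85 to 12.5] and the old ratio 2.56 [2.19 to 2.98], and both were called higher. Among all 6103 genes tested in this class, 8.06% were called in the knockout comparison (4.13% higher) and 3.88% in the old comparison (1.74% higher). Of the 8 genes, 4 reached 20 CPM and Crabp1 was the 1 called in each comparison. Both comparisons share the young control. The libraries held mostly different sub-clusters of these cells, given below, so the pooled ratios do not compare like with like. With the stricter cell filter the knockout ratio was 9.96 [8.80 to 11.3] and the old ratio 2.29 [1.95 to 2.68].

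After thinning to 1500 UMIs, 36.1% [28.3 to 44.4] of 147 knockout fibroblast-like cells had a Crabp1 UMI, against 4.03% [3.28 to 4.90] of 2405 young control and 9.42% [6.40 to 13.2] of 308 old control cells. The unthinned shares were 57.0%, 8.14% and 19.6%. The knockout share lay above both others, whose intervals did not overlap either. Fibroblast-like cells had median depths of 6318, 5505 and 5923 UMIs in the knockout, young and old libraries.

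**Figure D2:**
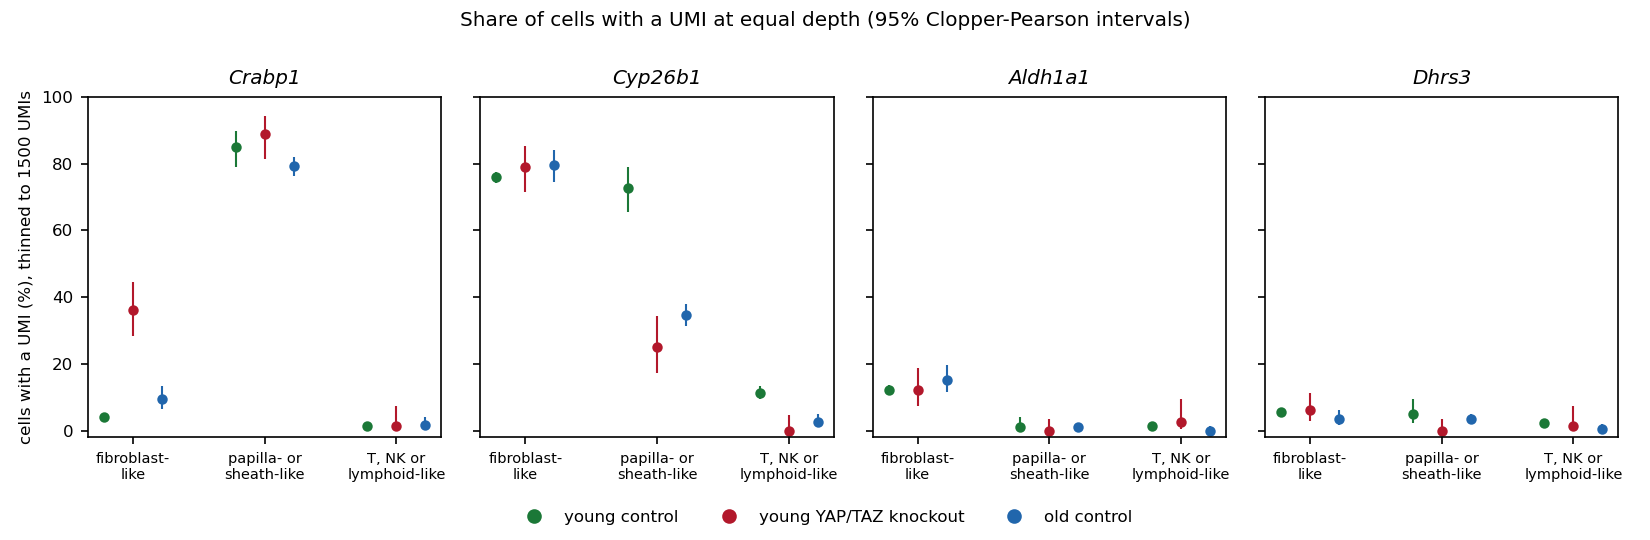
Share of cells with at least 1 UMI (vertical axis, %) after thinning each cell to 1500 UMIs, for 4 genes in 3 classes, 1 point per library with its 95% Clopper-Pearson interval. In fibroblast-like cells the Crabp1 share was 36.1% in the knockout and 4.03% in the young control, and in papilla- or sheath-like cells the Cyp26b1 share was 25% and 72.6%.

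By fibroblast-like cluster, the difference was uneven. Cluster 2, led by Col1a1, Col1a2 and Cpz, stood at 26.6 CPM in 1574 young control cells, 489 CPM in 93 knockout cells and 61.7 CPM in 235 old cells, and the ratios of 18.4 [15.4 to 22.05] and 2.32 [1.79 to 2.99] were called higher beside 4.51% and 1.96% of genes there. Cluster 31, the Coch positive elastin-rich fibroblast-like cells led by Coch, Fmod and Kera, stood at 564.5 CPM in 138 young control cells, 735 CPM in 43 knockout cells and 446 CPM in 63 old cells. Its ratios of 1.30 [1.09 to 1.55] and 0.79 [0.649 to 0.959] were not called. Lrrc15 and Tnn, which lead the reticular sub-cluster 11 given below, were also among the leading genes of cluster 31. Its levels and ratios may thus mix Coch positive and reticular cells. Cluster 15, led by Gpx3, Ifi205 and Inmt, stood at 6.96 CPM in 856 young control cells and 7.66 CPM in 39 old cells, and its 15 knockout cells were too few to compare. Crabp1 was thus present in the Coch positive subset of every library. Of the clusters compared here, only cluster 2 had ratios past the rule. Cluster 31 held 43 of the 151 knockout fibroblast-like cells but 138 of the 2568 young control ones. The knockout ratio of the class also stayed past the rule without cluster 2, as given below. What remains then is clusters 15 and 31, with 15 and 43 knockout cells against 856 and 138 young control cells. That ratio thus compares different mixes of clusters and does not show a difference within either cluster.

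Within cluster 2, 61.3% of knockout cells had at least 1 Crabp1 UMI, against 6.73% of young control cells. In the knockout 5 of its 93 cells held 44.7% of the UMIs. Sub-cluster 8, led by Igfbp2, F13a1 and Stc1, held 220 Crabp1 UMIs in 19 knockout cells (1588 CPM) and stood at 112 CPM in 194 young control cells. Sub-cluster 6, led by Pgr, Lrrtm3 and Rxfp1, stood at 191 CPM in 84 knockout cells and 40.4 CPM in 186 old cells and held 2 young control cells. Sub-clusters 0, 2, 3, 5 and 7 held 909, 410, 367, 288 and 245 young control cells. They held 1, 0, 2, 4 and 0 knockout cells. Sub-cluster 10, the Coch positive cells, stood at 1500 CPM in 18 knockout, 894 CPM in 91 young control and 866 CPM in 34 old cells. The reticular fibroblast-like sub-cluster 11 stood at 22.4, 18.99 and 37.8 CPM in 24 knockout, 48 young control and 38 old cells, with intervals that overlapped. Summed over 11 papilla or sheath markers, cluster 2 stood at 183 CPM in the knockout, with Corin and Hhip at 0, 63.8 CPM in the young control, with Acan at 0, and 68.1 CPM in the old control, with Hhip and Acan at 0. The part of papilla or sheath RNA in the result was not tested.

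Barcodes under 500 genes stood in for free RNA. They averaged 938, 1195 and 783 UMIs in the young control, knockout and old control, may include small or damaged cells, and were not tested for this. Crabp1 stood there at 44.2, 130 and 178 CPM. The knockout level in fibroblast-like cells lay above that profile, and the old level of 116 CPM lay below it. The old call was lost with each library clustered alone (ratio 1.36), when clusters were weighted as in the young control (1.30) and without cluster 15 (1.86), while the knockout ratio ran from 7.52 to 23.2 over all alternatives tried. It was 23.2 without cluster 31, 7.70 without cluster 2 and 7.88 without cluster 15.

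**Figure D3:**
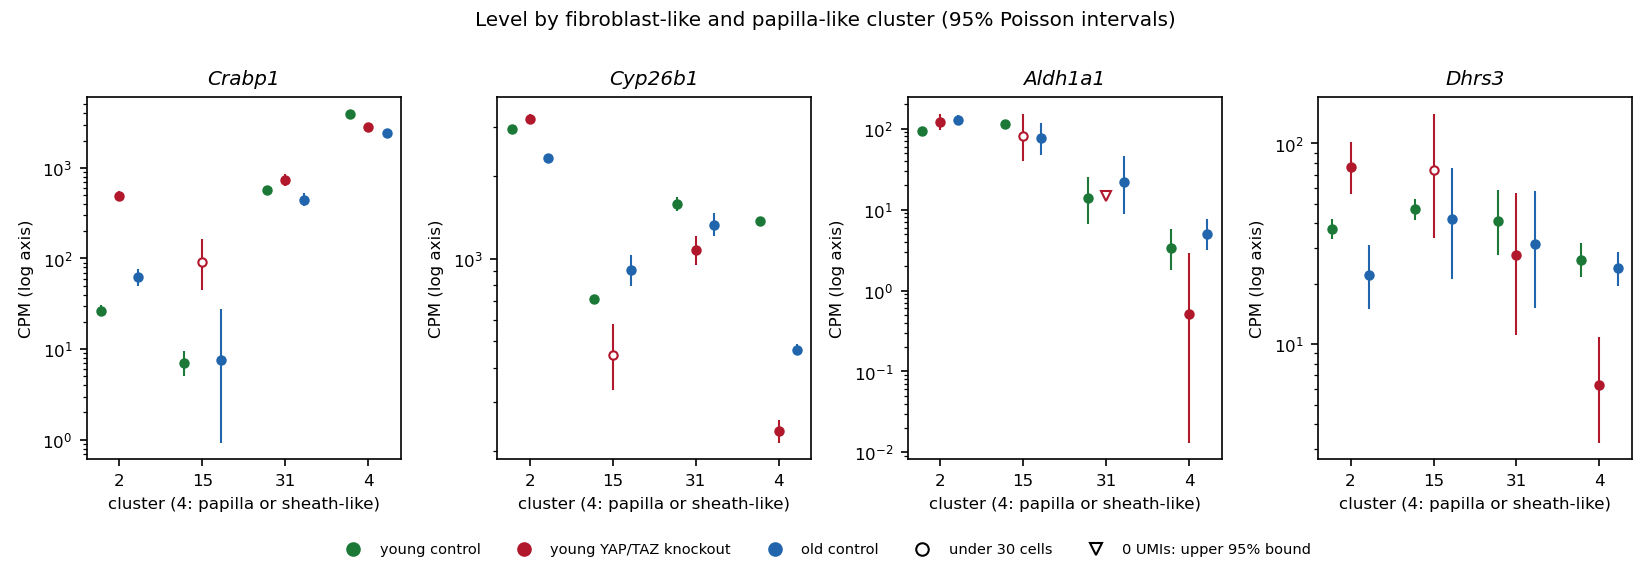
CPM (log axis) of Crabp1, Cyp26b1, Aldh1a1 and Dhrs3 in fibroblast-like clusters 2, 15 and 31 and in cluster 4, the papilla- or sheath-like cells, with 95% Poisson intervals. Open circles have under 30 cells and the open triangle is an upper bound at 0 UMIs. Crabp1 in cluster 2 stood at 489 CPM in the knockout and 26.6 CPM in the young control, while Cyp26b1 in cluster 4 stood at 235 and 1374 CPM.

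Outside mesenchymal classes, Crabp1 was called higher in knockout keratinocyte-like cells (ratio 11.9, 53.8 against 4.52 CPM), sebocyte-like cells (69.8, 150 against 2.15 CPM) and pericyte or smooth muscle-like cells (22.5, 133 against 5.91 CPM). In these classes 4.78%, 10.9% and 3.18% of genes were called higher. Without cluster 33 the keratinocyte-like ratio was 2.73 [1.64 to 4.32]. In the old control it was called higher in these 3 classes and in Schwann-like, vascular and lymphatic endothelial-like cells, with levels of 37.4 to 229 CPM. There 1.47%, 6.13% and 1.05% of genes were called higher in the first 3 classes, and 3.18%, 3.79% and 2.27% in the other 3. Apart from sebocyte-like and pericyte or smooth muscle-like cells in the knockout and Schwann-like cells in the old control, these levels lay below that of the barcodes under 500 genes in the same library, 130 and 178 CPM. Knockout sebocyte-like and pericyte or smooth muscle-like cells were mostly in clusters 17 and 7, and young control cells of those classes in clusters 12 and 21. The 130 CPM of knockout barcodes under 500 genes rested on 67 UMIs, and the 133 and 150 CPM of those classes lay close to it. The part of free RNA in these results was not tested.

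The 250 bases before the RefSeq start of Crabp1 (chr9:54764498-54764747, plus strand, GRCm38.p6) are shown because Crabp1 was called higher in knockout fibroblast-like cells, and because YAP and TAZ act through TEAD factors, whose core motif is GGAATG.
Crabp1: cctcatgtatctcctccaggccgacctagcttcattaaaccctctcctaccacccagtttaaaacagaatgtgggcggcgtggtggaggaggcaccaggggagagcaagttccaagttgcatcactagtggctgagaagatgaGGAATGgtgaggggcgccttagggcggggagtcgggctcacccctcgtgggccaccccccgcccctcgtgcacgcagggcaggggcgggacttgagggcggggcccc
Capitals mark the 1 match to GGAATG, on the plus strand, which starts 107 bases before the gene. Both strands were searched, and 4153 of 32851 promoter windows of this length, or 12.6%, held a match. Of the 10 windows found for 6 of the 8 genes, the upstream Aldh1a1 window held the other match. The nuclear receptor motif AGGTCA, searched on both strands and present in 4607 of all 32851 windows, was in none of the 10. The same held for AGTTCA, present in 11.8%. A match describes letters only and is not a binding site.

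Crabp2 (ENSMUSG00000004885; chromosome 3, 87948666 to 87953376, plus strand), which delivers retinoic acid to its nuclear receptor, was also highest in papilla- or sheath-like cells in the young control. It stood there at 130.5 CPM, at 136 CPM in the knockout and at 96.6 CPM in the old control, and the ratios of 1.04 [0.896 to 1.215] and 0.74 [0.649 to 0.844] were not called. Schwann-like cells came next at 63.1 CPM in the young control, 146.5 CPM in the knockout and 36.1 CPM in the old control. The knockout ratio there was 2.32 [1.865 to 2.90], called higher beside 2.17% of genes in that class, and it was 1.55 [1.26 to 1.91] and not called with cluster 14 put back. In suprabasal keratinocyte-like cells of cluster 1 the gene stood at 50.6 CPM in 740 young control cells, 115 CPM in 1186 old cells and 132.5 CPM in 47 knockout cells, against 4.62 CPM in 976 basal-like young control cells of cluster 9. Keratinocytes of the upper epidermis thus held more of it than basal ones in the young control. Over all keratinocyte-like cells the knockout ratio was 6.13 [5.38 to 6.98] and the old ratio 2.03 [1.84 to 2.24], with 4.78% and 1.47% of genes called higher. Of the 273 knockout cells of this class 167 were in cluster 33, which held no other library and stood at 152 CPM. The knockout ratio was 6.07 without that cluster and 3.45 with the stricter cell filter.

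In fibroblast-like cells Crabp2 was under the minimum of 20 CPM on average, at 9.61 CPM in the young control, 20.2 CPM in the knockout and 8.045 CPM in the old control. It reached 72.8, 75.0 and 31.4 CPM in the Coch positive cluster 31, where 5 of 138 young control cells held 60.4% of its UMIs. In the lymphoid-like cells it stood at 13.6, 3.02 and 11.3 CPM. The 3 genes whose pattern over the 14 young control classes was most like that of Crabp2 were Lbhd2, Map6 and Scube1 (r from 0.88 to 0.92). For Crabp1 they were Adamtsl2, Ncam2 and a, the agouti gene (r from 0.96 to 0.98). These likenesses were ranked over 7251 genes on log2(CPM + 5), all within 1 library.

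Rbp4 (ENSMUSG00000024990; chromosome 19, 38116629 to 38125281, minus strand) was sparse in every class. Dendritic or Langerhans-like cells stood at 12.55 CPM in the young control and 26.6 CPM in the old control, and the old ratio of 2.12 [1.355 to 3.28] missed the size rule. The UMIs lay in cluster 19, the Cd209a positive dendritic-like cells, at 16.1 CPM in 544 young control and 66.9 CPM in 75 old cells, where 5 of those 75 cells held 59.4% of the UMIs. The ratio within this cluster, 4.15 [2.61 to 6.51], was called higher beside 1.39% of genes there. Langerhans-like cluster 23 stood at 1.72 and 3.58 CPM. In fibroblast-like cells Rbp4 stood at 8.59 CPM in the young control, 21.2 CPM in the knockout and 2.01 CPM in the old control, the last from 4 UMIs. Within them, cluster 15 was the higher, at 14.25 CPM and with 8.64% of 856 young control cells, against 4.84 CPM and 2.10% of 1574 cells in cluster 2. Of the 21 knockout UMIs, 16 came from 3 of the 15 cells in cluster 15. In the lymphoid-like cells the gene stood at 0.81 CPM in the young control. Adam23, Sept3 and Tmco3 were the genes most like it (r from 0.75 to 0.86).

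Dhrs3 (ENSMUSG00000066026; chromosome 4, 144892827 to 144928209, plus strand), which lowers retinal, was counted in all 14 classes of the young control. Macrophage or monocyte-like cells had the highest level at 200.5 CPM in the young control [169 to 237], beside 109 CPM in 45 knockout cells and 172 CPM in 28 old cells. Pericyte or smooth muscle-like cells followed at 140 CPM [124 to 157.5], 114 CPM in the knockout and 102 CPM in the old control. Then came sebocyte-like cells at 98.35 CPM and Schwann-like cells at 94.0 CPM in the young control, whose intervals overlapped. Lymphoid-like cells were lowest in the young control at 14.9 CPM, beside 9.05 CPM in the knockout and 5.28 CPM in the old control. Dhrs3 was called lower in knockout vascular endothelial-like cells (25.6 against 80.0 CPM, ratio 0.32 [0.157 to 0.584], 3.1% of genes called lower) and in old Schwann-like cells (39.6 against 94.0 CPM, ratio 0.42 [0.297 to 0.586], 5.84% of genes called lower). Neither call held throughout: the knockout ratio was 0.56 [0.455 to 0.678] with cluster 3 put back, and the old ratio 0.55 [0.341 to 0.851] with the stricter cell filter. In fibroblast-like cells it stood at 41.5 CPM in the young control, 63.5 CPM in the knockout and 26.15 CPM in the old control. The ratios of 1.53 [1.16 to 1.99] and 0.63 [0.465 to 0.837] were not called. Papilla- or sheath-like cells stood at 26.4, 6.24 and 23.9 CPM in the young control, knockout and old control, under the minimum on average. The knockout value was 17.5 CPM with doublets kept and 12.2 CPM with each library clustered alone. Osbpl11, Lamp1 and Wwp1 were most like it (r from 0.77 to 0.80).

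Aldh1a1 (ENSMUSG00000053279; chromosome 19, 20492715 to 20643465, plus strand) was highest in fibroblast-like cells in the young control. It stood there at 97.2 CPM in the young control, 85.7 CPM in the knockout and 104 CPM in the old control, and the intervals of all 3 overlapped. The ratios of the pooled class were 0.88 [0.70 to 1.10] and 1.07 [0.921 to 1.24], so a change of 1.5-fold in it lay outside both intervals. Its thinned share of cells was 12.3%, 12.2% and 15.3%, against 1.37%, 2.67% and 0% of 288 in the lymphoid-like cells, where the floor of 3 cells allows up to 1.04% of cells with a UMI. Cluster 2 stood at 92.6, 122 and 128 CPM in the young control, knockout and old control and cluster 15 at 114 CPM in the young control, while the Coch positive cluster 31 stood at 13.7 CPM in the young control and papilla- or sheath-like cells at 3.36 CPM. Without cluster 2, Aldh1a1 was called lower in fibroblast-like cells in both comparisons. Clusters 15 and 31 then remain, and the libraries held them in different proportions, so these calls do not compare like with like.

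Schwann-like cells were the other Aldh1a1 source, at 81.3 CPM in the young control, 29.4 CPM in the knockout and 35.2 CPM in the old control. Both ratios, 0.36 [0.259 to 0.498] and 0.43 [0.298 to 0.615], were called lower, beside 6.06% and 5.84% of genes called lower in that class. Most of the UMIs lay in cluster 10, led by Scn7a, Cadm2 and Kcna6, at 158, 53.6 and 38.2 CPM. The myelinating-like cluster 20, led by Ugt8a, stood at 13.3, 4.67 and 22.7 CPM. In the old control cluster 20 had 68 cells, and its level was nearer to that of cluster 10. Cluster 10 held 342 of 644 young control cells, 299 of 435 knockout cells and 519 of 587 old cells of the class, and within it the ratios of 0.339 [0.239 to 0.474] and 0.242 [0.162 to 0.3515] were called lower beside 6.54% and 8.4% of genes. Over the class, the knockout ratio was 0.36 [0.283 to 0.468] with cluster 14 put back and 0.20 [0.115 to 0.336] with the stricter cell filter, called lower in both. The old ratio was 0.71 [0.429 to 1.14] and not called with that filter. Vit, Entpd2 and Opcml were most like Aldh1a1 (r from 0.87 to 0.94). The annotated genes C730002L08Rik and Gm6684 overlap it on the opposite strand.

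Aldh1a2 (ENSMUSG00000013584; chromosome 9, 71215789 to 71296243, plus strand) gave 49, 47 and 23 UMIs in all barcodes of the young control, knockout and old control. In kept young control cells 24 of its UMIs were in dendritic or Langerhans-like cells (5.10 CPM), all in cluster 19, where 21 of 544 cells carried them. In the old control that class had 1 UMI. Cluster 31 was the fibroblast-like source, with 7 UMIs in the young control (9.62 CPM) and 4 in the old control (12.6 CPM). By sub-cluster, the Coch positive sub-cluster 10 held 7 UMIs in the young control and 1 in the old control. The reticular sub-cluster 11 held 3 in the old control. The 43 knockout cells of cluster 31 had 0 UMIs, with an upper bound of 14.6 CPM that covers the value of either control. H2-Ob, Hepacam2 and Cd209e, genes of antigen-presenting cells in the case of H2-Ob and Cd209e, were most like it (r from 0.95 to 0.96).

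Aldh1a3 (ENSMUSG00000015134; chromosome 7, 66390890 to 66427517, minus strand) was also rare, with 174, 297 and 102 UMIs in all barcodes. Its highest young control level, 33.6 CPM in cycling cells, rested on 1 cell with 48 of 52 UMIs and is no property of that class. Ckap5, Ppp2r5d and Nucks1 were most like it (r from 0.84 to 0.91), a ranking that includes that class. Schwann-like cells carried it in all 3 libraries, at 16.7 CPM [11.5 to 23.4] in the young control, 9.23 CPM [5.27 to 14.98] in the knockout and 14.1 CPM [8.05 to 22.9] in the old control, with overlapping intervals. In cluster 10 the share of cells with a UMI was 4.39%, 5.02% and 2.70% in the same order, and in the young control 1 cell held 11 of 29. In fibroblast-like cells it stood at 1.02, 1.01 and 3.52 CPM.

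Cyp26b1 (ENSMUSG00000063415; chromosome 6, 84571414 to 84593908, minus strand, 7 exons) was highest in fibroblast-like cells of all 3 libraries. Fibroblast-like cells held 77.5% of its UMIs in kept young control cells. The level was 1990 CPM in the young control, 2327 CPM in the knockout and 1969 CPM in the old control. The knockout ratio was 1.17 [1.12 to 1.22] and the old ratio 0.99 [0.957 to 1.02], so neither comparison moved the pooled level by 1.5-fold. The libraries held the clusters given below in different proportions, so these pooled ratios do not compare like with like. The thinned share of cells was 75.9%, 78.9% and 79.5% in the same order, against 11.2% in young control and 0% of 75 knockout lymphoid-like cells, where the floor of 3 cells allows up to 4% of cells with a UMI. Barcodes under 500 genes stood at 201, 62.1 and 194 CPM. Pdgfra, Ptgfr and Dpt, of which Pdgfra and Dpt were used to name the fibroblast-like class, were most like it (r from 0.97 to 0.98).

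Fibroblast-like clusters of 1 library differed among themselves. Cluster 2 stood at 2964, 3212 and 2311 CPM in the young control, knockout and old control, cluster 31 at 1584, 1074 and 1326 CPM, and cluster 15 at 710 CPM in the young control and 908 CPM in the old control. The Inmt-led sub-cluster 5 stood at 205 CPM in 288 young control cells and 239 CPM in 18 old cells, and sub-cluster 0 at 2970 CPM in 909 young control cells. Reticular fibroblast-like cells stood at 1637 CPM in the young control, 1151 CPM in the knockout and 1280 CPM in the old control.

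Papilla- or sheath-like cells were the second Cyp26b1 source, and there the libraries did differ. The level was 1374 CPM in the young control, 235 CPM in the knockout and 467 CPM in the old control. The ratios were 0.17 [0.155 to 0.188] and 0.34 [0.323 to 0.358], and both were called lower, beside 5.49% and 1.85% of the 6446 genes of that class. Of the 8 genes, 3 reached the minimum there and Cyp26b1 was the 1 called. The thinned share of cells was 72.6% [65.5 to 79.0], 25% [17.2 to 34.2] and 34.7% [31.4 to 38.0], so that the young control stood apart. With the stricter cell filter the levels were 1376, 243 and 538 CPM, and with each library clustered alone 1373, 231 and 480 CPM. With cluster 13 put back the knockout level was 199 CPM. By sub-cluster they were 1469 CPM in sub-cluster 9 of the young control, 243 CPM in sub-cluster 12 of the knockout, 572 CPM in sub-cluster 4 of the old control and 316 CPM in its shallow sub-cluster 1. The fibroblast marker sum in this class stood at 2853, 2102 and 2340 CPM, and its part in the result was not tested. Sub-cluster 9, which held most young control cells of the class, scored nearly as high for papillary fibroblast, as given above. Crabp1 and Crabp2, which bind retinoic acid, were not called in the same cells, apart from Crabp1 with cluster 13 put back.

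The 152 bases before the annotated Cyp26b1 gene (chr6:84593909-84594060, minus strand, GRCm38.p6) are shown as those of the gene called lower in papilla- or sheath-like cells.
Cyp26b1: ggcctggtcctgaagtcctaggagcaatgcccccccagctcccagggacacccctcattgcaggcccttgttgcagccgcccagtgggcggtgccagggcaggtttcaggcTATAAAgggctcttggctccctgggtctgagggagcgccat
Capitals mark the match to TATAAA, the TATA box, which 7.59% of all windows of 250 bases held on the strand of the gene. The window of 250 bases held none of the other 3 motifs.

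In other classes Cyp26b1 was called lower in knockout vascular endothelial-like cells (27.9 against 114 CPM, ratio 0.24 [0.125 to 0.434], beside 3.1% of genes) and in lymphoid-like cells of both libraries (3.02 and 16.6 against 74.6 CPM, beside 3.35% and 4.15% of genes called lower). It was called higher in old Schwann-like cells (176 against 78.3 CPM) and old sebocyte-like cells (90.0 against 29.3 CPM), beside 3.18% and 6.13% of genes. The vascular ratio was 0.82 [0.703 to 0.949] with cluster 3 put back, and the old Schwann ratio 1.47 [1.085 to 1.98] with the stricter cell filter, and neither was then called. All of these levels lay below the 201, 62.1 and 194 CPM of barcodes under 500 genes in the same library, and the part of free RNA was not tested.

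**Figure D4:**
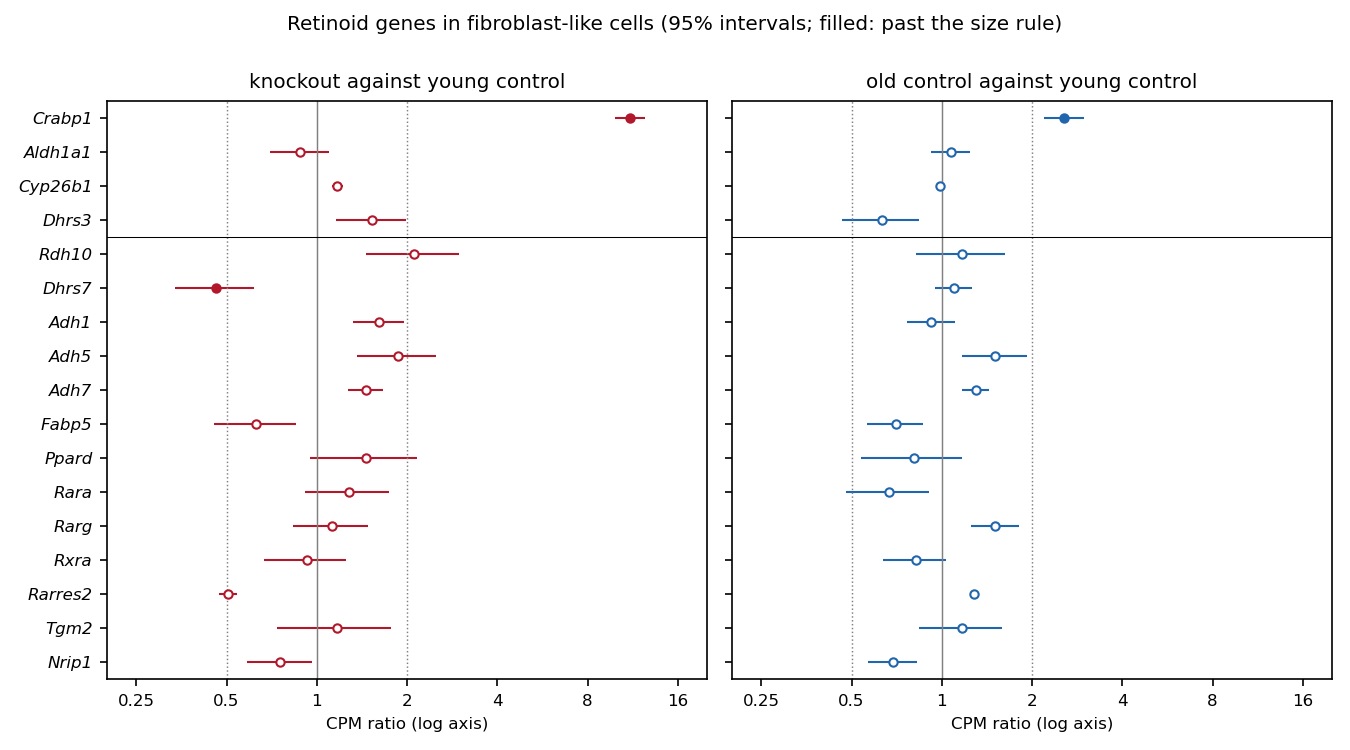
CPM ratio (log axis) against the young control in fibroblast-like cells, with exact 95% intervals, for the 4 members and 13 of the 14 other retinoid pathway genes that reached 20 CPM. Filled points passed the size rule and dotted lines mark ratios of 0.5 and 2. The filled ones are Crabp1, with a knockout ratio of 11.1 and an old ratio of 2.56, and Dhrs7, with a knockout ratio of 0.46.

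Of 40 other retinoid pathway genes, 14 reached 20 CPM in fibroblast-like cells. In the knockout comparison 0 were called higher and 1 lower, and in the old comparison 0 were called in either direction. Their median log2 ratio was 0.19 for the knockout and 0.01 for the old control, beside 0.15 and 0.04 over all genes tested. Dhrs7, a short-chain dehydrogenase, was the one called lower, at 46.4 CPM in the knockout, 101 CPM in the young control and 111 CPM in the old control (ratio 0.46 [0.335 to 0.617]). Beside it 3.93% of all genes were called lower. Its call was lost in 5 of the alternatives tried, among them doublets kept and each library clustered alone. Rarres2, the gene of the secreted protein chemerin, stood at 837 CPM in the knockout, 1659 CPM in the young control and 2127 CPM in the old control, and its knockout ratio of 0.50 [0.470 to 0.5405] lay just short of the rule. Adh7, an alcohol dehydrogenase that oxidises retinol, stood at 245, 168 and 218 CPM and was not called.

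Among uptake and storage genes, Lrat, which makes retinyl esters, and Rbp7, a retinol binding protein, stood at 240 and 227 CPM in cluster 18 of the young control, the vascular endothelial-like cells led by Aqp7, Lrat and Gpihbp1. In the same cluster Lrat stood at 16.3 CPM [5.99 to 35.5] in 71 knockout cells and 188 CPM in 107 old cells. Rbp7 stood at 231 CPM in the knockout and 80.1 CPM [50.8 to 120] in the old control. Median depth in this cluster was 3076, 4193 and 1649 UMIs in the young control, knockout and old control. Over all vascular endothelial-like cells Lrat was called lower in both comparisons (ratios 0.07 and 0.23, the former 0.08 with cluster 3 put back) and Rbp7 in the old one (0.11), where 3.1% and 5.39% of genes were called lower. Most old cells of that class, 235 of 342, were in cluster 26, led by Cytl1 and Lhx6, where Lrat was at 1.2 CPM.

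Among receptors and response genes, Rxrg, a retinoid X receptor, stood in Schwann-like cells at 116 CPM in the young control and 52.5 CPM in the knockout (ratio 0.45 [0.352 to 0.581], called lower). The old control stood at 59.0 CPM [45.7 to 74.9] and was not called, and its interval overlapped that of the knockout [42.25 to 64.4]. Rarg stood at 113 CPM in young control papilla- or sheath-like cells and 106 CPM in keratinocyte-like cells. Fabp5, which carries fatty acids and retinoic acid, stood at 5655 CPM in young control sebocyte-like cells. In papilla- or sheath-like cells Fabp5 was called higher in both comparisons, at 79.1 CPM in the knockout and 89.5 CPM in the old control against 30.75 CPM, beside 5.07% and 2.58% of genes called higher. In knockout keratinocyte-like cells Tgm2, a transglutaminase, stood at 59.1 CPM against 3.32 CPM (ratio 17.8 [13.7 to 23.1]). Without cluster 33 the ratio was 1.06 [0.381 to 2.38]. Cluster 33, of the knockout only, also held markers of other cells: 9 pericyte or smooth muscle markers summed to 12923 CPM and 7 vascular endothelial markers to 911 CPM, against 124 and 29.97 CPM in young control keratinocyte-like cells.

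Of the same 40 genes, 15 reached 20 CPM in papilla- or sheath-like cells, where 2 were called higher and 2 lower in the knockout, beside 5.07% and 5.49% of all genes, and 2 higher and 0 lower in the old control, beside 2.58% and 1.85%. Rarres2 was lower in the knockout (10.9 CPM) and higher in the old control (75.2 CPM) than in the young control (33.6 CPM), and both differences were called. Dhrs7 was called lower in the knockout there (32.8 against 82.2 CPM) and Ppard, a nuclear receptor, higher (63.5 against 29.2 CPM). In Schwann-like cells 16 reached the minimum, with 0 called higher and 3 lower in the knockout (2.17% and 6.06% of all genes) and 0 called in the old control (3.18% and 5.84%). Besides Rxrg, the lower ones were Adh7 (11.5 against 54.05 CPM, with 75.7 CPM in the old control) and Tgm2 (18.45 against 52.5 CPM, with 29.9 CPM in the old control). With cluster 14 put back the Tgm2 ratio turned to 1.31 [1.04 to 1.66], and those of Rxrg and Adh7 were 0.40 for both.

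Among conversion and ester genes, young control sebocyte-like cells had Dhrs7 at 766 CPM, Rdh11, a retinal reductase, at 324 CPM and Dgat1, which makes esters, at 103 CPM. In this class 17 genes reached the minimum, and 3 were called higher and 3 lower in the knockout, beside 10.9% and 5.81% of genes. Adh7 was called higher in the knockout (60.3 CPM) and in the old control (99.3 CPM) against 23.1 CPM. Rarres2 was called higher in both as well, at 60.0 and 92.7 CPM against 15.05 CPM. Median depths of sebocyte-like cells were 11570, 2391 and 1958 UMIs in the young control, knockout and old control. The part of free RNA in these calls was not tested. Nrip1, a nuclear receptor corepressor, was called lower in knockout sebocyte-like cells (88.3 against 228 CPM) and knockout keratinocyte-like cells (82.0 against 196.5 CPM), and Rarres1 in the latter (10.6 against 29.8 CPM), where 5.72% of genes were called lower. The Rarres1 ratio was 0.68 and not called with the stricter cell filter. Of the 1034 knockout sebocyte-like cells 801 were in cluster 17 and 221 in cluster 32, while 187 of 190 young control ones were in cluster 12. Of the 273 knockout keratinocyte-like cells 167 were in cluster 33, which held no other library. The knockout calls in both classes thus compare mostly different clusters. Of the receptors, Rara reached 142 CPM in mast-like cells and Rxra 137 CPM in sebocyte-like cells of the young control. Tgm2 reached 488 CPM in lymphatic endothelial-like cells of the young control, 616 CPM in the knockout and 313 CPM in the old control.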

How the data were processed

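The authors' deposited values are unnormalised UMI counts of genes by barcode. Per the submitters' processing notes they used Cell Ranger 3.1.0 and Seurat 3.1.5 with the build mm10. The selection of barcodes before deposit is not stated. Cells were barcodes of 500 genes and 1000 UMIs or more with no more than 15% mitochondrial UMIs. The automatic doublet threshold of Scrublet marked 2.82%, 0% and 0.0083%, so the top 8% of scores were removed instead. The 3 libraries were clustered together in scanpy 1.11.5 (2000 variable genes, 30 components, 20 neighbours, leidenalg 0.10.2 at resolution 1), without batch correction and without the 8 genes, the pathway list and sex genes. Clusters were named from marker lists, with thresholds set after the cluster tables were seen. Classes rebuilt this way may differ from the study's. TMM factors came from edgeR 4.0.16 in R 4.3.3. Depth was 95274423, 57767761 and 52579262 UMIs. Barcodes under 500 genes stood in for free RNA. Gene coordinates are GENCODE M21 and promoters RefSeq, both on GRCm38, counted from 1. Ratio and interval code was tested on simulated data. Pathway genes were named when called (at most 10, by the nearer interval end) or above 100 CPM in a young control class; Rdh10 and Adh1 were named after their values were seen, and 1 gene of the list is not reported here. Likeness used genes reaching 50 CPM. The members and lists were chosen with earlier results of these data known.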

Additional observations from a re-analysis of the deposited data

Results flagged for a closer look

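Cyp26b1 moved in opposite directions in different classes of the old control. Its ratio against the young control was 0.34 in papilla- or sheath-like cells and 0.222 in lymphoid-like cells (T, NK and innate), but 2.25 in Schwann-like (1.47 and not called with the stricter cell filter) and 3.07 in sebocyte-like cells. Apart from papilla- or sheath-like cells, the levels in these classes lay below those of barcodes under 500 genes in the same library. The part of free RNA was not tested. The difference between classes was not tested, with 1 library per group.

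Cells of unnamed clusters enter the class comparisons only where a cluster is put back. They held Crabp1 at 267 CPM in the knockout and 125 CPM in the old control, against 6.85 CPM in the young control. In the knockout, cluster 13, led by Stfa3, BC100530 and a, carried the highest level at 812 CPM in 1000 cells, scored best but low for papilla or sheath markers, and had 1 cell in each control. Crabp2 stood at 48.6 CPM in unnamed knockout cells against 19.9 CPM in the young control. These clusters held different cells in each library, so the values do not compare like with like.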

How the results depend on the processing

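Crabp1 stayed called higher in knockout fibroblast-like cells under all 12 alternatives. The count of members called there was 2 when cells were thinned to 1500 UMIs (with Crabp2) and 3 without cluster 2 (with Crabp2 higher and Aldh1a1 lower). In the old comparison it was 0 with each library clustered alone, with clusters weighted as in the young control, and without cluster 15, and it was 2 with no minimum mean CPM (with Rbp4 lower) and without cluster 2 (with Aldh1a1 lower). The count of other pathway genes called in the knockout was 2 under the stricter cell filter, TMM factors, median-of-ratios factors, clusters weighted as in the young control, without cluster 2 and without cluster 15, and 3 with the profile of barcodes under 500 genes subtracted, with Rarres2, Rdh10 or Adh1 among them. For the old comparison it was 0 throughout. Leaving out clusters, putting unnamed ones back and filtering other classes more strictly were chosen after seeing the data. Without cluster 2, the fibroblast-like class is clusters 15 and 31, which the libraries held in different proportions. In Schwann-like cells the knockout ratio of Tgm2 turned from 0.35 to 1.31 with cluster 14. TMM and median-of-ratios factors moved all knockout ratios by -0.15 and -0.11 on the log2 scale. They relate libraries within a class and gave no order of classes. The class with the highest young control level was kept by 6 genes under the stricter filter, 7 with doublets kept, 8 with each library clustered alone and 7 when thinned. The causes of these shifts were not tested. No paired analysis was possible because each group has 1 library. Depth limits Rbp4, Aldh1a2 and Aldh1a3, which rest on few UMIs, and the 151 knockout fibroblast-like cells.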
